A study of Mus musculus with 70 samples.

Results

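The Cyp3a genes of the mouse liver were followed in male offspring of dams fed a control (Ctr) diet or a high fat diet (HFD). They were the 8 protein-coding genes named Cyp3a11, Cyp3a13, Cyp3a16, Cyp3a25, Cyp3a41a, Cyp3a41b, Cyp3a44 and Cyp3a59, taken by name from the 54532 genes counted at both ages. The rows of Cyp3a57 (3 reads over all 70 mice) and of the pseudogenes Cyp3a63-ps (4 reads) and Cyp3a61-ps1 (0 reads) were left aside.

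All mice were C57BL/6 males. Their mothers received AIN-93G (Ctr) or D12492 (HFD) from 5 weeks before mating until delivery, and every dam and pup was on chow afterward. Livers were collected at 4 or 16 weeks of age at zeitgeber time (ZT, hours after lights on) 1, 5, 9, 13, 17 and 21, giving 16 Ctr and 18 HFD mice at 4 weeks and 18 Ctr and 18 HFD mice at 16 weeks. Each diet and time point held 3 mice, or 2 for Ctr at ZT9 and ZT13 at 4 weeks. Each mouse gave 1 poly(A) RNA-sequencing library with 14758382 to 20100545 counted reads, and no pair of libraries was identical. One 4-week HFD mouse (ZT21, replicate 3) carried an age field naming 16 weeks against its title, and results that change without it are marked. The 2 ages were counted in separate tables, so that age and any difference in handling between the tables cannot be told apart.

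CYP3A enzymes are haem proteins of the endoplasmic reticulum that oxidize steroids, bile acids and a large share of drugs. They take electrons from the reductase Por and cytochrome b5, and their genes are classic targets of the xenobiotic receptors PXR (Nr1i2) and CAR (Nr1i3). In adult mouse liver several members depend on sex: Cyp3a41a, Cyp3a41b and Cyp3a44 are known as female forms, controlled by the pattern of growth hormone release, whereas Cyp3a16 is known as a fetal and neonatal form. Cyp3a11 is the main form of the adult male liver.

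All members but Cyp3a13 lie in 1 cluster on chromosome 5 (GRCm38): Cyp3a16 at chr5:145436309-145469723, Cyp3a41b at chr5:145558664-145584730, Cyp3a41a at chr5:145694049-145720136, Cyp3a44 at chr5:145773983-145805874, Cyp3a11 at chr5:145854426-145879964 and Cyp3a25 at chr5:145977194-146009618, all on the minus strand, and Cyp3a59 at chr5:146079257-146113287 on the plus strand. Cyp3a13 lies apart on the minus strand, at chr5:137892932-137921619, where the annotation also places a processed pseudogene, and the effect of this overlap on its counts was not tested. The upstream sequences fell into groups. The 250 bases before the start sites of Cyp3a25 and Cyp3a59 were 94.8% identical, those of Cyp3a41a and Cyp3a41b 99.6%, and that of Cyp3a44 was 92.9% identical to that of Cyp3a16 and 94.4% to that of Cyp3a41a. The pairs Cyp3a25 and Cyp3a59, and Cyp3a44 and Cyp3a16, are shown because genes with closely similar upstream bases differed in level or age effect, and Cyp3a11 is shown as the most abundant member. They are from RefSeq (GRCm38.p6), 5′ to 3′, and end at the base before the RefSeq start site. For Cyp3a11 that site lies inside the gene span given above, so its bases from 145879855 to 145879964 overlap the span. The sequence of Cyp3a59 shares base 146079257 with its gene span. Capitals mark matches on either strand to AGGTCA, the core hexamer bound by nuclear receptors, and to TATAAA, the letters of the TATA box motif.
Cyp3a11, chr5:145879855-145880104, minus strand: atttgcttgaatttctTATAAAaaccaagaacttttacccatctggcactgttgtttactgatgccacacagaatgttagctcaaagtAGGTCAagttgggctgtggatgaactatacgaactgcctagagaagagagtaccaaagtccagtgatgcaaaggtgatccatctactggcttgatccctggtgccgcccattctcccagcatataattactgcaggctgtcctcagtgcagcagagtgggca
Cyp3a25, chr5:146009619-146009868, minus strand: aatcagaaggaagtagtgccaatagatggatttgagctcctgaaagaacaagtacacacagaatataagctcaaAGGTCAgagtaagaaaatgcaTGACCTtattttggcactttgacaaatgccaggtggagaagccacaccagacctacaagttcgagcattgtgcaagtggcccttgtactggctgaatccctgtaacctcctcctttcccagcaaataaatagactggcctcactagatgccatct
Cyp3a59, chr5:146079008-146079257, plus strand: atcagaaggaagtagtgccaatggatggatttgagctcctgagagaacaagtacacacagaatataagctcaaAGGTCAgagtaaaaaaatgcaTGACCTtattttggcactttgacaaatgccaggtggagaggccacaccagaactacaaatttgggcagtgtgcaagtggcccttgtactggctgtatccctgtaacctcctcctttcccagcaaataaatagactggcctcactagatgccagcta
Cyp3a44, chr5:145805875-145806124, minus strand: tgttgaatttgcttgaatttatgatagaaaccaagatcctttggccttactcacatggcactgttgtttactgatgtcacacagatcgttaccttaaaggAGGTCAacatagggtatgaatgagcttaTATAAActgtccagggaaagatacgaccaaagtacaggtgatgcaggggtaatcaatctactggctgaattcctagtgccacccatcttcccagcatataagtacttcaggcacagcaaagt
Cyp3a16, chr5:145469724-145469973, minus strand: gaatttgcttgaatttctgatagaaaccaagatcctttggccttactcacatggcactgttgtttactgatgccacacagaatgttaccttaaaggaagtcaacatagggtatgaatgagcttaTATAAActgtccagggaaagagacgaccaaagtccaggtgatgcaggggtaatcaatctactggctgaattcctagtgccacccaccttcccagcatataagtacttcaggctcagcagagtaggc

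All 8 genes had an entry in the promoter table. AGGTCA was present in 4 of the 8 upstream sequences (Cyp3a11, Cyp3a25, Cyp3a44 and Cyp3a59) and in 13.8% of the same 250 bases of 27025 genes. Cyp3a25 and Cyp3a59 each held it once on either strand, starting at -176 and -155 in Cyp3a25 and at -177 and -156 in Cyp3a59, counted from the start site. TATAAA was present in 5 of the 8 (13% of all genes). It started at -234 in Cyp3a11, at -126 in Cyp3a16 and at -122 in Cyp3a44, Cyp3a41a and Cyp3a41b. No member held TTCNNNGAA (the STAT5 motif, 7.18% of all genes), TTATGTAA (the D-box, 0.862%) or CACGTG (the E-box, 6.05%) in this window. These matches describe the letters only.

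Cyp3a11, Cyp3a25, Cyp3a13 and Cyp3a59 carried nearly all Cyp3a reads. Levels are given as CPM, the counts scaled to a common library size after TMM normalization. The 8 genes together took 0.584% ± 0.159 (SD, n = 16) of the reads in 4-week Ctr mice, 0.584% ± 0.144 (n = 18) in 4-week HFD mice, 0.41% ± 0.0722 (n = 18) in 16-week Ctr mice and 0.382% ± 0.0679 (n = 18) in 16-week HFD mice. Cyp3a11 alone supplied between 77.9% and 89.3% of them in every mouse. Compared per kilobase of the deposited gene length, the order was Cyp3a11, Cyp3a25, Cyp3a13 and Cyp3a59 in each of the 4 groups, and every mouse kept that order. In 4-week Ctr mice the levels were 986 ± 308 CPM per kilobase for Cyp3a11, 247 ± 43.9 for Cyp3a25, 71.9 ± 26.4 for Cyp3a13 and 39.7 ± 9.52 for Cyp3a59 (SD, n = 16). In 16-week Ctr mice they were 664 ± 131, 213 ± 29.3, 46.3 ± 6.5 and 14.2 ± 5.56 (n = 18). The deposited length of Cyp3a11 (5093 bases) exceeds that of its longest coding transcript (2344 bases), and its per-kilobase excess over Cyp3a25 in 4-week Ctr mice was 3.94-fold with the first and 8.23-fold with the second, leaving the order as it was.

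The other 4 members were scarce. In 4-week Ctr mice Cyp3a44 reached 0.827 ± 0.579 and Cyp3a16 0.3 ± 0.25 CPM per kilobase, and Cyp3a44 was above Cyp3a16 in 14 of 16 mice, compared with 12 of 18 HFD mice of that age. At 16 weeks the order of the means was turned, with Cyp3a16 above Cyp3a44 in 13 of 18 Ctr and 11 of 18 HFD mice. In 4-week Ctr mice Cyp3a41b was above Cyp3a41a in 6 of 16 mice, below it in 4 and equal to it in 6, and in HFD mice of that age above it in 9 of 18, below it in 2 and equal in 7. Their transcripts differ at 2 of 2060 aligned bases, and only 9.2% (Cyp3a41a) and 11.8% (Cyp3a41b) of their stretches of 100 bases occur in no other transcript, compared with 94% or more for the remaining 6 genes. Because uniquely mapped reads were counted, the levels of these 2 genes may be underestimates and their reads cannot be assigned firmly to one of them. For stretches of 50 bases, the share found in no other transcript was lower in other members too. It was 72% for Cyp3a59, 73.2% for Cyp3a25, 73.5% for Cyp3a44, 85.2% for Cyp3a11 and 89.3% for Cyp3a16. Cyp3a25 and Cyp3a59 share such stretches with each other, and Cyp3a16 and Cyp3a44 share some with Cyp3a11. The effect of this on their counts was not tested.

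**Figure D1:**
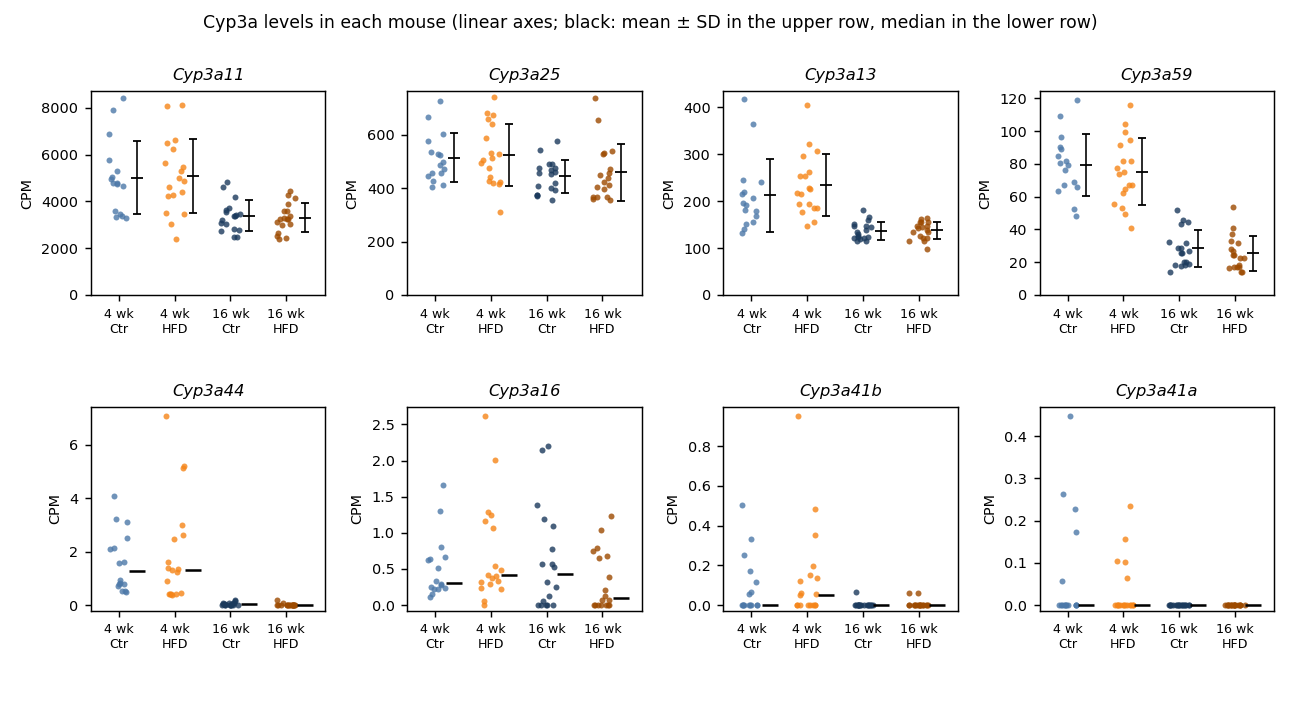
Levels of the 8 Cyp3a genes (CPM, linear axes with their own scale) in every mouse of the 4 groups, with the mean ± SD beside the points in the upper row and the median in the lower row. Cyp3a59 and Cyp3a44 lie lower at 16 than at 4 weeks in both diets, and Cyp3a41a is at 0 in all 36 mice at 16 weeks.

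The age comparison asked which Cyp3a genes switch between the weanling and the adult liver. Cyp3a44 was nearly lost, Cyp3a59 fell 2.9-fold, Cyp3a13 fell 1.59-fold, Cyp3a11 fell 1.47-fold and Cyp3a25 fell 1.14-fold. The mRNA of the female forms Cyp3a41a and Cyp3a41b was detectable in a part of the 4-week males and almost gone at 16 weeks. Age effects are log2 fold changes of 16 over 4 weeks from edgeR (quasi-likelihood, Benjamini-Hochberg over 17741 genes), and 61.6% of those genes passed an adjusted p of 0.05, 29.5% lower and 32.2% higher at 16 weeks. In whole liver, fewer cells of a type and less RNA per cell cannot be told apart.

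Cyp3a44 had 7 to 134 reads in every one of the 34 mice at 4 weeks and 0 to 3 reads at 16 weeks, when 25 of the 36 mice had none. The 2 ages did not overlap. Its levels were 0.38, 1.33 and 7.06 CPM (lowest, median and highest) at 4 weeks and 0, 0 and 0.184 CPM at 16 weeks. Summed over all mice, 1120 reads at 4 weeks against 17 at 16 weeks gave a ratio of 63.3 per library read, with a 95% interval of 39.4 to 109 that covers counting error only. The gene entered the age test through its 4-week level alone and so had to differ. At 16 weeks it was listed above 0 in 9 of 18 Ctr and 2 of 18 HFD mice, with 13 and 4 reads in all, too few to test.

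Cyp3a41a had 33 reads at 4 weeks, in 10 of 34 mice, and 0 in all 36 mice at 16 weeks. Against a floor of 3 reads over the 16-week group, its 4-week level was at least 10.6-fold higher. Cyp3a41b had 74 reads in 17 of 34 mice at 4 weeks and 3 reads in 3 of 36 mice at 16 weeks, a ratio of 23.7 with a counting interval of 7.8 to 118. Neither gene entered the main test, since both had no reads in most mice of at least 1 diet at each age. Without the filter on low counts 6 members were called for age, and neither of these 2 genes was among them. The 2 genes summed gave a ratio of 34.3, with a counting interval of 11.4 to 169.

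Cyp3a59 stood at 40.7, 76.7 and 119 CPM at 4 weeks and at 14, 24.8 and 53.7 CPM at 16 weeks (lowest, median and highest). Of the 36 mice at 16 weeks, 30 lay below the lowest mouse at 4 weeks. The log2 fold change was -1.54 ± 0.11 (SE; adjusted p = 9.83e-18, edgeR) and lay between -1.67 and -1.4 over 16 alternative settings (adjusted p at most 3.88e-09). Of all genes tested, 4.35% passed the test and were lower by 1 or more on the log2 scale. Cyp3a25, its close relative (97% identical transcripts), stood at 310, 501 and 741 CPM at 4 weeks and 354, 443 and 738 CPM at 16 weeks. The ages overlapped widely, and the log2 fold change was -0.19 ± 0.056 (adjusted p = 0.0022, edgeR). That call was lost without the mice of replicate 3 (log2 fold change -0.09) and among HFD mice alone (-0.21, adjusted p = 0.0547), within a range of 8.98e-05 to 0.19 over the 16 alternatives.

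Cyp3a11, the main form, stood at 2400, 4840 and 8410 CPM at 4 weeks and at 2410, 3270 and 4840 CPM at 16 weeks. The lowest mice were alike at the 2 ages, whereas 17 of 34 mice at 4 weeks lay above the highest mouse at 16 weeks. Its log2 fold change was -0.56 ± 0.087 (adjusted p = 2.18e-07, edgeR). Cyp3a13, the most distant member with 69.9% to 72.2% identity to the other transcripts, stood at 131, 211 and 418 CPM at 4 weeks and at 97.3, 137 and 182 CPM at 16 weeks. All 36 mice at 16 weeks lay below the 4-week median, and the log2 fold change was -0.67 ± 0.072 (adjusted p = 1.01e-11). Cyp3a16, the fetal form, had 0 to 38 reads at 4 weeks and 0 to 41 reads at 16 weeks, and was present in 33 of 34 and 24 of 36 mice. Its log2 fold change of -0.73 ± 0.38 did not pass (adjusted p = 0.0913, edgeR). It passed without the mice of replicate 1 (log2 fold change -1.25) and without the filter on low counts (-0.72). The adjusted p ranged from 0.0109 to 0.603 over 16 alternatives. Summed over all mice, the fall was smaller, with 366 reads at 4 weeks against 284 at 16 weeks. This gave a ratio of 1.24 per library read, with a counting interval of 1.06 to 1.45. With additive age terms the log2 fold change was -0.32.

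**Figure D2:**
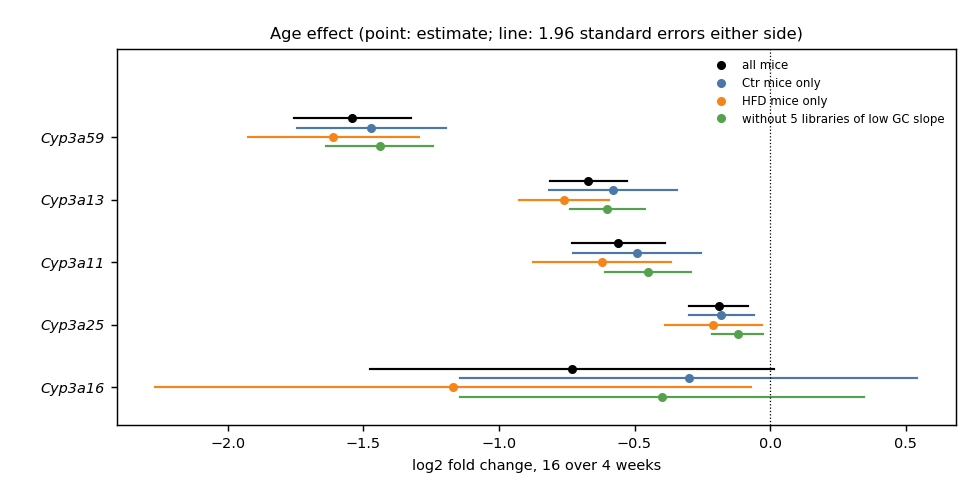
Age effect (log2 fold change of 16 over 4 weeks, with an approximate 95% interval) on 5 Cyp3a genes with all mice, within each maternal diet and without 5 libraries of low GC slope. Cyp3a59, Cyp3a13 and Cyp3a11 lie below 0 in each of the 4 fits, and the line of Cyp3a16 crosses 0 in all of them but the HFD mice alone.

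A group of 5 libraries at 4 weeks stood apart in composition. The GC slope of a library is the slope of its log2 ratio to the mean of its age on the GC content of genes, and it lay between -5.62 and -4.76 in these 5 and between -2.9 and 3.01 in the other 65. They were 1 Ctr mouse (ZT17, replicate 3) and 4 HFD mice (ZT1, ZT13 and ZT21, replicate 3, and ZT17, replicate 2). The Cyp3a genes are poor in GC (40.4% to 42.4%, against a median of 49.7% for tested genes). In the 5 libraries Cyp3a11 stood at 5660 to 8130 CPM with a mean of 7270, against 4680 ± 1290 (SD, n = 29) in the other 4-week mice. Cyp3a25 stood at 641 to 741 CPM there and at 491 ± 80.9 in the others. Cyp3a16 stood at 1.17 to 2.61 CPM there and at 0.437 ± 0.329 in the others. Cyp3a44 did not follow, with 0.426 to 5.22 CPM there and 1.86 ± 1.57 in the others. Without these libraries the age effects were -1.44 ± 0.1 for Cyp3a59, -0.6 ± 0.071 for Cyp3a13, -0.45 ± 0.081 for Cyp3a11 and -0.12 ± 0.048 for Cyp3a25, and each still passed (adjusted p = 0.0282 for Cyp3a25, the highest of the 4).

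**Figure D3:**
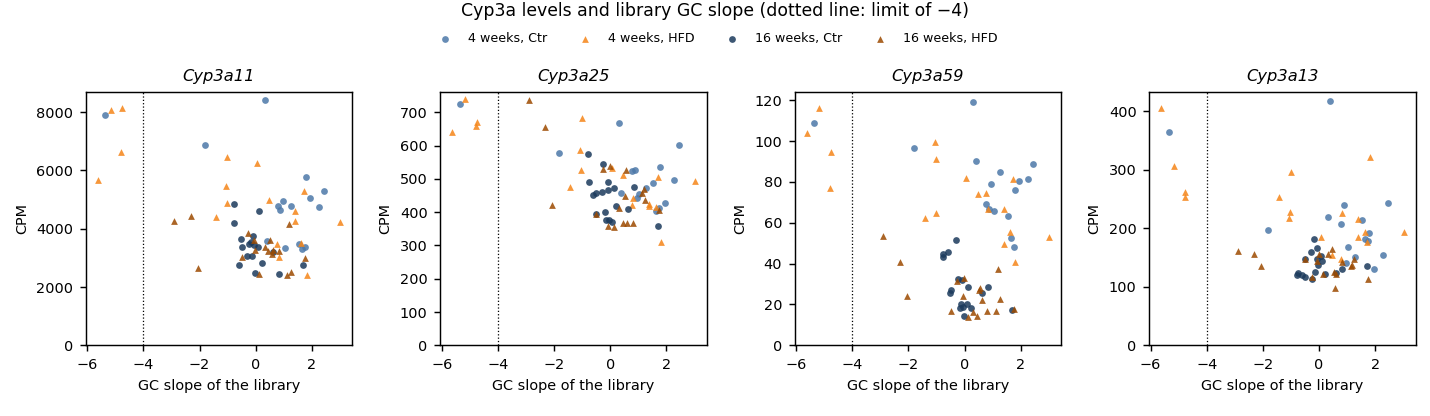
Level of 4 Cyp3a genes (CPM) in each of the 70 libraries against the GC slope of the library (log2 ratio per unit of GC content), by age and maternal diet. The 5 libraries left of the dotted line at -4 are all from 4 weeks and lie in the upper part of the range of Cyp3a11 and Cyp3a25.

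Genes that act with or upstream of Cyp3a were described list by list, with no test of a list. Of all genes tested, 61.6% passed the age test, 32.2% higher and 29.5% lower at 16 weeks. The share that passed was 60% of the electron donor and haem list, 64.3% of the regulators and 77.8% of the other PXR and CAR targets. Among the electron donors and haem supply, 2 of 5 genes rose with age and 1 fell: the cytochrome b5 gene Cyb5a (log2 fold change 0.71) and its reductase Cyb5r3 (0.65) rose, while Por fell by 0.34 on the log2 scale. Among 14 transcriptional regulators, 6 rose and 3 fell. The CAR gene Nr1i3 rose by 0.93 and the PAR bZip factor gene Tef by 0.29, whereas Cebpb (-0.67) and the glucocorticoid receptor gene Nr3c1 (-0.47) fell. Among 18 other PXR and CAR targets, 6 rose and 8 fell, with Cyp2b10 (-2.91) and Sult1e1 (-1.82) lowest and Gsta1 (1.95) and Abcc3 (1.01) highest. The median of the latter list was -0.09, against 0.02 for all genes.

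Liver genes known for a sex bias were described in the same way. Their counts stand beside 61.6% of all genes that passed the age test, 32.2% higher and 29.5% lower. Of 18 female-biased genes 14 were tested, of which 12 fell and 2 rose. The median of the list was -2.7 on the log2 scale. Cyp2b9 (-6.56), Hao2 (-6.53) and A1bg (-5.33) were among those that fell. Some of these genes have few reads at 16 weeks, so that their fitted values are not precise. Those that passed the filter through their 4-week level had to be lower at 16 weeks, and the count and median are given as a description only. Of 18 male-biased genes 14 were higher and 1 lower, with a median of 0.58, led by Mup21 (2.96), Mup7 (2.23), Mup20 (2.11) and Gstp1 (1.8). Among 9 genes of growth hormone signalling, 1 rose (Stat5a, 0.29) and 4 fell, including Prlr (-0.86), Igf1 (-0.36) and Jak2 (-0.22). In all, 55.6% of that list passed.

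Markers of cells in the sample also differed with age. Their counts stand beside 61.6% of all genes that passed the age test, 32.2% higher and 29.5% lower. The share that passed was 87.5% of the hepatocyte markers and 100% of the Kupffer cell and of the endothelial markers. It was 60% of the stellate and fibroblast, 90% of the pericentral and 55.6% of the periportal markers. The summed level of 8 hepatocyte markers was 122000 to 180000 CPM at 4 weeks (medians of 153000 in Ctr and 143000 in HFD mice) and 82700 to 139000 CPM at 16 weeks (118000 and 121000), with none of them at 0 in every mouse. Of these markers 5 fell (Hpx, -0.69, and Ahsg, -0.6, most) while 2 rose (Ttr, 0.56, and Apoa1, 0.5). All 6 markers of Kupffer cells and macrophages fell, led by Adgre1 (-1.31), and their sum was 290 to 647 CPM at 4 weeks and 145 to 402 CPM at 16 weeks. Of 5 endothelial markers 4 fell, led by Lyve1 (-1.39), and 1 rose, with sums of 139 to 230 CPM at 4 weeks and 98.7 to 196 CPM at 16 weeks. Of 5 stellate and fibroblast markers 3 fell, led by Col1a1 (-2.23), with sums of 208 to 399 CPM at 4 weeks and 138 to 286 CPM at 16 weeks. Of 10 pericentral hepatocyte markers 9 rose and none fell, led by Rhbg (1.09) and Tbx3 (0.97), with sums of 5070 to 12300 CPM at 4 weeks and 5430 to 15000 CPM at 16 weeks. Of 9 periportal markers 2 rose and 3 fell, with sums of 7470 to 11600 CPM at 4 weeks and 7030 to 12600 CPM at 16 weeks. The part of these shifts in the fall of the Cyp3a genes was not tested.

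The time series asked whether Cyp3a mRNA is rhythmic over 24 h. At 16 weeks Cyp3a25 and Cyp3a59 were highest in the second part of the day and Cyp3a13 in the early night, whereas Cyp3a11, the most abundant member, showed no rhythm that passed the test. At 4 weeks only the scarce Cyp3a16 passed, and only narrowly. The rhythm test was an F test on cosine and sine terms in both diets together (edgeR, Benjamini-Hochberg), and amplitudes are the distance from the mean to the peak on the log2 scale.

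At 16 weeks Cyp3a25 stood at 402 ± 49.7 CPM at ZT1, 504 ± 49 at ZT5, 546 ± 126 at ZT9, 443 ± 67.4 at ZT13, 395 ± 29.7 at ZT17 and 418 ± 51.9 at ZT21 (SD, n = 6 each). Its amplitude was 0.23 with a fitted peak at ZT 7.8 h (adjusted p = 0.000629, edgeR). Cyp3a59 ran from 19.6 ± 3.76 CPM at ZT17 to 38.3 ± 12.5 at ZT9 (n = 6 each), with an amplitude of 0.41 and a peak at 7.5 h (adjusted p = 0.0161, edgeR). Cyp3a13 ran from 120 ± 13.1 CPM at ZT5 to 152 ± 16.3 at ZT17 (n = 6 each), with an amplitude of 0.16 and a peak at 15 h (adjusted p = 0.00268, edgeR). These 3 of the 5 tested members stand beside 34.7% of all genes that passed at 16 weeks. Cyp3a11 ran only from 3140 ± 746 CPM at ZT5 to 3680 ± 589 at ZT21 (n = 6 each), with an amplitude of 0.03 (adjusted p = 0.935, edgeR), and Cyp3a16 did not pass (adjusted p = 0.321).

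The 16-week HFD mice at ZT9 had GC slopes of -2.9, -2.31 and -2.07, the lowest of that age, and 2 of them had the highest Cyp3a25 levels at 16 weeks (738 and 655 CPM). Without the mice at ZT9 the rhythm of Cyp3a25 still passed (amplitude 0.18, adjusted p = 0.0245) and that of Cyp3a13 did too (adjusted p = 0.000656), but that of Cyp3a59 did not (amplitude 0.28, adjusted p = 0.237). Cyp3a59 was also lost without the mice of replicate 1 (0.117) or 3 (0.135), within either diet (amplitude 0.49 and adjusted p 0.0546 in Ctr, 0.32 and 0.384 in HFD) and with the GC slope as a covariate (0.27 and 0.243). With that covariate Cyp3a25 (adjusted p = 0.0367) and Cyp3a13 (0.00076) passed. Over 14 alternatives the adjusted p ranged from 0.000154 to 0.0825 for Cyp3a25, from 0.000656 to 0.104 for Cyp3a13 and from 0.0036 to 0.384 for Cyp3a59. Within one diet (24.4% of all genes passed in Ctr and 15.6% in HFD mice), Cyp3a25 had an amplitude of 0.2 in Ctr mice (adjusted p = 0.0142, peak at 7 h) and of 0.24 in HFD mice (0.0825, 8.4 h). Cyp3a13 had an amplitude of 0.19 in HFD mice (0.0373, 14.7 h) and of 0.15 in Ctr mice (0.104, 16.4 h). The test of a rhythm that differs between diets passed for none of the members at either age, and for 0% of all genes. One member, Cyp3a16 at 16 weeks, had an unadjusted p under 0.05 in it (p = 0.0367, adjusted p = 0.388, edgeR), against 2.1% of all genes at 4 weeks and 11.7% at 16 weeks, and DESeq2 also called 0 members.

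At 4 weeks the rhythm of Cyp3a16 passed with an adjusted p of 0.0466 (edgeR; 29.7% of all genes passed), an amplitude of 0.89 and a peak at 19.2 h. Its mean was 0.239 ± 0.194 CPM at ZT5 and 0.897 ± 0.891 at ZT21 (n = 6 each). This call was lost in 11 of 15 alternatives (adjusted p from 0.0223 to 0.338), among them without the 5 libraries of low GC slope (amplitude 0.59, adjusted p 0.252), 4 of which lay between ZT13 and ZT21. The amplitude was 0.74 without the mouse with 2 age labels (adjusted p 0.128), 0.86 within Ctr mice (0.338) and 1.19 within HFD mice (0.141), where 9.42% and 12.7% of all genes passed. Cyp3a25 had an amplitude of 0.17 and a peak at 17.8 h (adjusted p = 0.0748, edgeR), Cyp3a11 an amplitude of 0.23 and a peak at 20.5 h (adjusted p = 0.197), and Cyp3a44 an amplitude of 0.63 (adjusted p = 0.174). Cyp3a13 (amplitude 0.16, adjusted p = 0.431) and Cyp3a59 (0.01, 0.997) did not pass, although Cyp3a13 passed without the mice of replicate 1 (0.029).

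Cyp3a25 was the only member whose rhythm differed between the ages by the test of that difference (adjusted p = 0.0301, edgeR; 0.31% of all genes passed). The vector between its 2 fitted rhythms had a length of 0.38 on the log2 scale. At 4 weeks its highest mean was at ZT17, 617 ± 92.8 CPM, and its lowest at ZT5, 446 ± 32.7 (n = 6 each), while at 16 weeks the lowest mean was at ZT17. The adjusted p rose above 0.05 without the 5 libraries of low GC slope (adjusted p = 0.0829), without replicate 1 (0.218), 2 (0.319) or 3 (0.166), without ZT9 (0.201), without the mouse with 2 age labels (0.0529) or with the GC slope as a covariate (0.124), and ranged from 0.0109 to 0.319 over 13 alternatives. The length of the vector was 0.32 without the 5 libraries, 0.34 without ZT9, 0.37 without the mouse with 2 age labels and 0.26 with the covariate. For Cyp3a59 the same test gave p = 0.0354 and an adjusted p of 0.327.

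**Figure D4:**
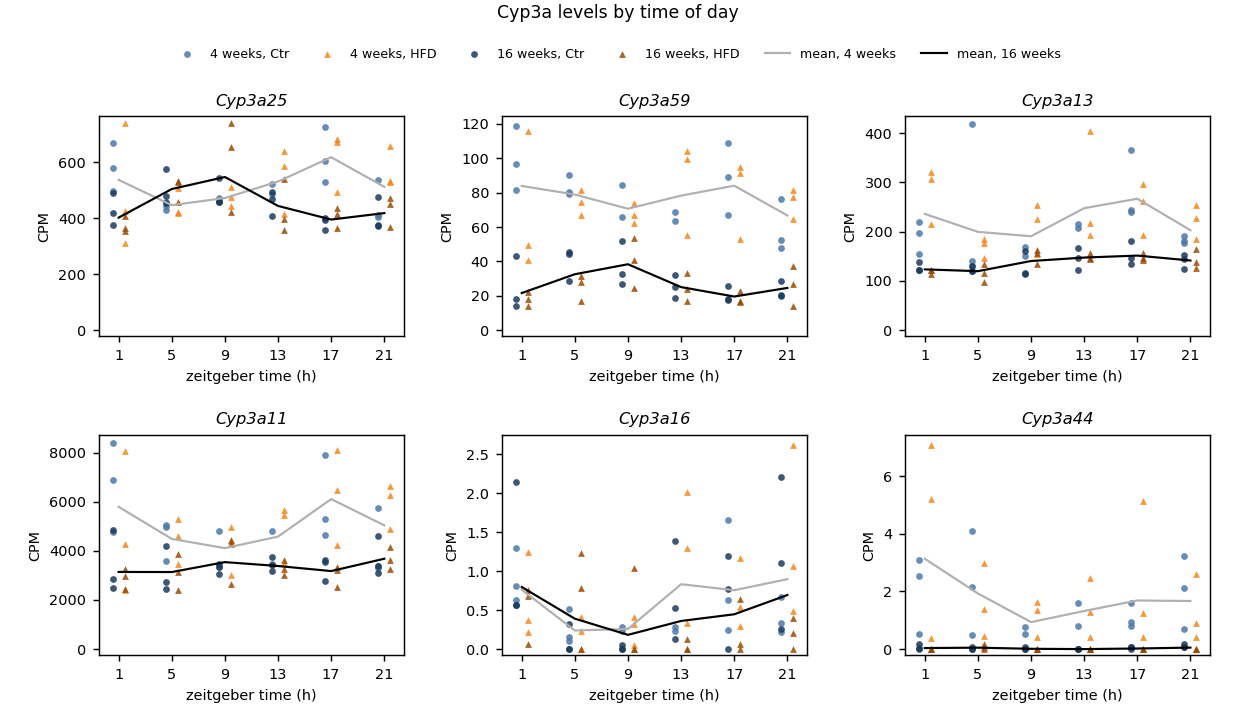
Levels (CPM) of 6 Cyp3a genes by zeitgeber time in every mouse (circles: Ctr, triangles: HFD), with lines through the means of both diets at 4 weeks (grey) and 16 weeks (black). At 16 weeks the means of Cyp3a25 and Cyp3a59 are highest at ZT9, while at 4 weeks that of Cyp3a25 is highest at ZT17.

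Each gene was also assigned to 1 of 5 rhythm models (none, Ctr only, HFD only, shared, different in each diet) by its weight under the Bayesian information criterion, with a weight of 0.6 or more needed. At 16 weeks Cyp3a25 (weight 0.916), Cyp3a13 (0.897) and Cyp3a59 (0.729) were in the shared model, and Cyp3a11 (0.907) and Cyp3a16 (0.628) in the model with no rhythm. Without the mice of replicate 3, Cyp3a13 was in the model with a rhythm in HFD mice only (0.682), and Cyp3a25 (0.587) and Cyp3a59 (0.539) were not assigned. Without replicate 1, Cyp3a59 was not assigned (0.386 for Ctr only), nor was Cyp3a16 without replicate 2 (0.514) or 3 (0.495) or with edgeR's dispersions in place of DESeq2's (0.46). At 4 weeks Cyp3a59 (0.884), Cyp3a13 (0.812) and Cyp3a44 (0.624) were in the model with no rhythm, whereas without replicate 1 Cyp3a13 was in the shared model (0.713) and Cyp3a44 was not assigned (0.449), nor was it without replicate 3 (0.482) or with edgeR's dispersions (0.543). Cyp3a11 (0.56 for none), Cyp3a25 (0.382 for none, 0.371 for shared) and Cyp3a16 (0.517 for shared) were not assigned, although Cyp3a11 was in the model with no rhythm without replicate 3 (0.705). Among the genes that act with Cyp3a, the rhythm test passed for 3 of 5 electron donor and haem genes at 4 weeks and 4 of 5 at 16 weeks, for 9 and 8 of 14 regulators and for 12 and 10 of 18 other PXR and CAR targets, beside 29.7% of all genes at 4 weeks and 34.7% at 16 weeks.

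Maternal HFD did not change any Cyp3a gene by a difference that passed the test, at either age. The 6 members tested at 4 weeks and the 5 tested at 16 weeks gave 0 calls in edgeR, 0 with an unadjusted p under 0.05 and 0 in DESeq2. Among all genes 0.0119% passed at 4 weeks and 0.109% at 16 weeks, and 9.29% and 11.4% had an unadjusted p under 0.05. Cyp3a11 stood at 3310, 4790 and 8410 CPM in 4-week Ctr mice and at 2400, 4940 and 8130 CPM in 4-week HFD mice (lowest, median and highest). The 2 diets overlapped over nearly their whole range, and the log2 fold change of HFD over Ctr was 0.06 ± 0.14, with an approximate 95% interval of -0.22 to 0.33 (adjusted p = 0.911, edgeR). At 16 weeks Cyp3a11 stood at 2460, 3370 and 4840 CPM in Ctr mice and at 2410, 3250 and 4450 CPM in HFD mice, and the log2 fold change was -0.04, with an interval of -0.22 to 0.13 (adjusted p = 0.903).

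For Cyp3a25 the interval was -0.13 to 0.21 at 4 weeks and -0.1 to 0.16 at 16 weeks. For Cyp3a13 it was -0.13 to 0.42 at 4 weeks and -0.11 to 0.1 at 16 weeks. Cyp3a59 had a log2 fold change of -0.06 (interval -0.3 to 0.18) at 4 weeks and -0.17 (-0.48 to 0.15) at 16 weeks. The scarce genes could not be resolved so finely. Cyp3a16 had 147 reads in 4-week Ctr, 219 in 4-week HFD, 189 in 16-week Ctr and 95 in 16-week HFD mice, and intervals of -0.38 to 1.18 at 4 weeks and -2.06 to 0.62 at 16 weeks. Cyp3a44 at 4 weeks had an interval of -0.46 to 1.09. Cyp3a41a and Cyp3a41b, with 21 and 28 reads in 4-week Ctr mice and 12 and 46 in 4-week HFD mice, were tested as a sum at 4 weeks only (log2 fold change -0.05 ± 0.61).

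Because 4 of the 5 libraries of low GC slope were from HFD mice, the 4-week comparison was repeated without them. The log2 fold changes were then -0.05 ± 0.15 for Cyp3a11, -0.05 ± 0.079 for Cyp3a25, -0.17 ± 0.13 for Cyp3a59 and 0.09 ± 0.15 for Cyp3a13, and the lowest adjusted p of the 6 members was 0.805 (edgeR). The signs of Cyp3a11 and Cyp3a25 turned, and none passed. With the GC slope as a covariate Cyp3a59 stood at -0.23 ± 0.1 (unadjusted p = 0.0311, adjusted p = 0.674). The diet effect did not differ between the ages by a test that passed for any of the 5 members with an estimate (adjusted p of 0.723 or more, edgeR; 0.276% of all genes passed). No member had an unadjusted p under 0.05 (11.9% of all genes did) or was called in DESeq2. The model gave no usable estimate for Cyp3a44, which had no reads in whole cells of the design at 16 weeks.

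**Figure D5:**
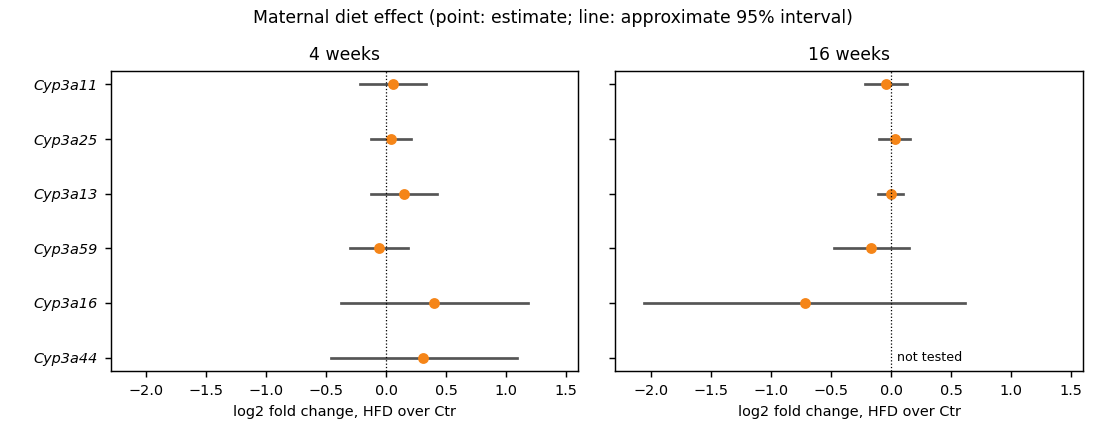
Maternal diet effect (log2 fold change of HFD over Ctr, with its approximate 95% interval) on the Cyp3a genes tested at 4 and 16 weeks. Every interval includes 0, and those of Cyp3a16 and Cyp3a44 are wider than those of the 4 abundant genes.

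Cyp3a11, Cyp3a25 and Cyp3a59 varied together from mouse to mouse. Correlations are Pearson's r of log2 CPM after subtracting the mean of each age, diet and time point. They are descriptions across mice that share library composition, and some of the members share stretches of sequence. At 4 weeks (34 mice) r was 0.94 for Cyp3a25 and Cyp3a59, 0.89 for Cyp3a11 and Cyp3a25 and 0.85 for Cyp3a11 and Cyp3a59. Without the 5 libraries of low GC slope (29 mice) these were 0.9, 0.85 and 0.74. At 16 weeks (36 mice) they were 0.67, 0.67 and 0.68. Cyp3a16 had r of 0.63 with Cyp3a11, 0.62 with Cyp3a25 and 0.59 with Cyp3a59 at 4 weeks, 0.42, 0.33 and 0.34 without the 5 libraries, and 0.55, 0.33 and 0.36 at 16 weeks. Cyp3a13, outside the cluster, had r of 0.1 with Cyp3a11 and 0.35 with both Cyp3a25 and Cyp3a59 at 4 weeks, of -0.16, 0.17 and 0.22 without the 5 libraries, and of -0.02, 0.08 and -0.02 at 16 weeks. Cyp3a44 had r of -0.13 with Cyp3a11 at 4 weeks, -0.17 without the 5 libraries and -0.21 at 16 weeks.

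Over all 70 mice, the genes outside the family with the pattern most like each member were sought among 12278 genes with a mean of 1 CPM or more. The 5 libraries of low GC slope were kept. At 4 weeks, r with the GC slope after the same subtraction was -0.75 for Cyp3a25, -0.7 for Cyp3a59 and -0.65 for Cyp3a11. It was -0.62 for Cyp3a16, -0.55 for Cyp3a13 and 0.15 for Cyp3a44. The part of library composition in these likenesses was not tested. After subtraction of the group means, Nqo2, Picalm and Xkr9 were closest to Cyp3a11 (r = 0.713, 0.701 and 0.682). Fgg and Fgb, which encode fibrinogen chains, and Cd302 were closest to Cyp3a13 (0.861, 0.851 and 0.832). Gas2, Rida and Dleu2 were closest to Cyp3a25 (0.74, 0.738 and 0.719), and Cyp2c55, Lpl and Elovl2 to Cyp3a59 (0.704, 0.656 and 0.621). Nap1l1 was closest to Cyp3a16 (0.567) and Hap1 to Cyp3a44 (0.504). Without subtraction, so that age enters, Igf2bp3, Slc22a26 and Cyp2a22 were closest to Cyp3a44 (0.884, 0.881 and 0.879), Dpy19l4 to Cyp3a59 (0.892), Cd302 to Cyp3a13 (0.899), Acadsb to Cyp3a11 (0.774), Sucla2 to Cyp3a25 (0.747) and Aasdhppt to Cyp3a16 (0.541).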

How the data were processed

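Poly(A) RNA of 70 livers was sequenced on an Illumina NovaSeq from libraries without stated strand. Per the labels and the study's methods, the authors aligned trimmed reads with HISAT2 2.0.5 to GRCm38 and counted uniquely mapped reads per gene of Ensembl with featureCounts 1.5.0-p3, and the deposited values are these raw counts. Unique mapping lowers the counts of near-identical genes. In the 4-week table, 2 columns match none of the samples described and were not used.

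From the counts, edgeR 4.0.16 (TMM, quasi-likelihood, robust) gave all tests with R 4.3.3. A gene was tested when 50% or more of the Ctr mice and likewise of the HFD mice had a read (16776 genes at 4 weeks, 17409 at 16 weeks), and in the age fits when it met this at either age (17741). Diet effects had ZT as a factor, the age effect and its interaction with diet used cell means of age, diet and ZT, and rhythms used cosine and sine terms of 24 h. Benjamini-Hochberg values under 0.05 passed. Rhythm models used dispersions of DESeq2 1.42.0. Correlations used log2 CPM with a prior count of 2. The fits were tested on simulated data. Mice of the same diet and time point came from different litters, and littermates may share a group across time points.

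Members and lists were chosen with earlier results of these data known. All 8 members are named in each comparison, from each list up to 4 passing genes with the largest age effect, and the genes most alike by r, and a few genes that this would name are not reported here. Alternatives were other normalizations, no filter, DESeq2, replicates or mice left out, a replicate block, a GC covariate, each diet alone and other gene lengths. The GC slope was taken against the mean of each age, so as a covariate it cannot adjust the age effect. The deviations of same-numbered mice of the 2 diets had r over 0.1 in 3 of 16 pairs at 4 weeks and in 9 of 18 at 16 weeks. Since this did not hold for every pair, and no source ties the numbers to a litter or day, the numbers were not taken to pair mice. GC content and transcript identity are from GENCODE M21, upstream sequences from RefSeq. Counting intervals are exact binomial ones at 95%.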

Additional observations from a re-analysis of the deposited data

Results flagged for a closer look

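Cyp3a25 was the member whose time course differed between the ages by the test of that difference itself (adjusted p = 0.0301, edgeR, age by rhythm interaction over 17741 genes). At 4 weeks its means ran from 446 CPM at ZT5 to 617 CPM at ZT17, and at 16 weeks from 395 CPM at ZT17 to 546 CPM at ZT9. The adjusted p was above 0.05 in 7 of 13 alternatives. The 5 libraries of low GC slope at 4 weeks lay at ZT1, ZT13, ZT17 and ZT21, and their Cyp3a25 levels were 641 to 741 CPM. Without them the vector between the 2 fitted rhythms had a length of 0.32 on the log2 scale (unadjusted p = 3e-04, adjusted p = 0.0829, edgeR), against 0.38 with them.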

How the results depend on the processing

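No alternative gave a diet call for a member (45 alternatives at 4 weeks and 47 at 16 weeks, each mouse left out in turn included), and the fits of diet by rhythm and diet by age gave none either. The age effect called 4 to 6 members over 16 alternatives (61.6% of all genes passed in the fit reported), counts that hold Cyp3a44 each time and, where Cyp3a41a and Cyp3a41b were summed, that pair, which entered through their 4-week levels and so had to differ. The cause of the changes below was not tested, and the fits without ZT9, without the mouse with 2 age labels, without the 5 libraries of low GC slope, with additive age terms and with transcript lengths were chosen after seeing the data.

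The number of members rhythmic at 4 weeks fell from 1 to 0 with library totals only, with the replicate block (adjusted p = 0.0509 for Cyp3a16), with the GC slope as a covariate, with ZT as a factor, in either diet alone, without the mouse with 2 age labels and without the 5 libraries, and lay between 0 and 1 with a replicate number left out. At 16 weeks it was 1 of 3 in either diet alone. The age by rhythm count fell from 1 to 0 with the GC covariate, without ZT9, without the mouse with 2 age labels and without the 5 libraries, and was 0 without each replicate number. The rhythm models counted 0 rhythmic members at 4 weeks, 1 at a weight of 0.4, and 0 to 1 without a replicate number, and 3 at 16 weeks, 1 to 3 without a replicate number. The per-kilobase ratio of Cyp3a11 to Cyp3a25 (3.94, 3.91, 3.13 and 3.02 in 4-week Ctr and HFD and 16-week Ctr and HFD mice) was 9.64, 9.56, 7.65 and 7.38 without length and 8.23, 8.16, 6.53 and 6.3 with transcript lengths. The replicate block changed no other call.

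Signs of small diet effects turned. At 4 weeks, with the GC covariate, the log2 values were -0.12 for Cyp3a11, -0.08 for Cyp3a16 and -0.08 for Cyp3a25, and without the 5 libraries -0.05 for Cyp3a11 and Cyp3a25. Without a replicate number they lay between -0.04 and 0.15 for Cyp3a11, -0.06 and 0.11 for Cyp3a25, -0.18 and 0.54 for Cyp3a44 and -0.21 and 0.01 for Cyp3a59. At 16 weeks Cyp3a25 was at -0.04 with library totals and -0.03 without ZT9, and without a replicate number the values lay between -0.04 and 0.12 for Cyp3a25, -0.09 and 0.04 for Cyp3a11 and -0.43 and 0.03 for Cyp3a59. The diet by age values were 0.11 for Cyp3a11, 0.12 for Cyp3a25 and 0.08 for Cyp3a59 with the GC covariate, 0.03, 0.09 and 0.01 without the 5 libraries, and 0.01 for Cyp3a25 without the mouse with 2 age labels. Without a replicate number they lay between -0.23 and 0.1 for Cyp3a11, -0.32 and 0.03 for Cyp3a13, -2.66 and 0.74 for Cyp3a16, -0.11 and 0.19 for Cyp3a25 and -0.43 and 0.24 for Cyp3a59. Over all genes DESeq2 called 49 and 120 genes for diet at 4 and 16 weeks (edgeR 2 and 19), 129 for diet by age (49) and 233 for age by rhythm (55). Depth limits Cyp3a41a, Cyp3a41b, Cyp3a44 at 16 weeks and Cyp3a16.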

Other observations

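The counts of markers here stand beside 61.6% of all genes that passed the age test. Of 5 cholangiocyte markers, 1 rose with age (Sox9, 0.71 on the log2 scale) and 2 fell (Krt19, -1.02, and Spp1, -0.49), with sums of 22.4 to 119 CPM over all mice. Among erythroid markers Hba-a1 fell (-0.81) and Alas2 rose (0.22). Of 6 enterocyte markers 3 were tested and Fabp2 rose (0.72), with Sis at 0 in every mouse of the 4 groups. The summed level of 5 pancreatic acinar markers was 35500 CPM in the 4-week HFD mouse of replicate 2 at ZT9 and 52.5 CPM or less in every other mouse. Of these markers 2 were tested, and Cela2a was lower at 16 weeks (-1.56), a value that includes that mouse.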
